A study of Homo sapiens with 21 samples.

Results

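HNRNPK-bound sites in noncoding annotation classes were described in the cytoplasm and nucleus of parental and KRT19 KO MDA-MB-231 cells. A site here is a cluster, a stretch of overlapping PAR-CLIP reads with T-to-C changes, and its class is the annotation name that the deposited tables give it. All clusters were taken whose class was not 3'UTR, coding sequence, 5'UTR, protein-coding intron or no annotation, and that were not on the mitochondrial chromosome. This gave 57416 of 778762 clusters, in 32 classes and under 7381 gene names. The other clusters included 469646 in introns, 65788 in 3'UTRs and 20372 in coding sequence. The name noncoding holds for most of these classes but not for all, since 2055 clusters (3.58%) lay on a boundary of a coding transcript, such as a stop codon or an exon edge.

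MDA-MB-231 is an established line of triple-negative breast cancer, and KRT19 encodes keratin 19, an intermediate filament protein. KRT19 was disrupted with CRISPR/Cas9 in the K19 KO cells, and the labels do not say whether these cells are 1 clone. The cells of all 4 groups were fed 4-thiouridine (4SU) and crosslinked with UV light, and HNRNPK was immunoprecipitated with an antibody that the labels name HNRNPK/J. There was 1 library each for parental cytoplasm, KRT19 KO cytoplasm, parental nucleus and KRT19 KO nucleus, so differences between libraries have no replicate check and no tests between conditions were run. Intervals are 95% intervals of shares (Wilson) or of ratios of shares (log scale), and they cover counting error only.

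HNRNPK is an RNA-binding protein that shuttles between nucleus and cytoplasm and binds short runs of C through its KH domains. Its RNA partners include long noncoding RNAs, introns and the untranslated parts of mRNA. Small RNAs such as the spliceosomal snRNAs, the snoRNAs that guide rRNA modification and the Y RNAs are short, abundant and folded, and each works within its own protein complex.

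The sequences shown here are from the sites that hold the most reads of their class or that the comparisons turn on, cut to at most 30 bases. They are given 5′ to 3′ on the transcribed strand of hg19 (GRCh37), with T for U. Capitals mark the first copy of the motif of the study, which is U or A, then U, C or A, then CCC, such as TTCCC. It was searched on the transcribed strand only, and copies can overlap within a run of C. In the snoRNA sites of SNORD12, SNORD11B and GAS5 the capitals mark TGATGA, the letters searched for box C, the element near the 5′ end that defines this snoRNA class.
RNU4-2, chr12:120729612-120729641, minus strand: aaacttTTCCCaataccccgccatgacgac
RNU4-1, chr12:120730946-120730975, minus strand: aaacttTTCCCaataccccgccgtgacgac
RNY1, chr7:148684312-148684341, minus strand: tggctggtccgaaggtagtgagttatctca
RNU2-61P, chr6:89773305-89773334, minus strand: tctgaggacaatatattaaatggatttttg
SNORD12, chr20:47897224-47897253, plus strand: ttgcagcTGATGAtacagcttctttcccca
SNORD11B, chr2:203156057-203156080, plus strand: atggcaaTGATGAtttttacactt
GAS5, chr1:173834542-173834567, minus strand: tgttagTGATGAttttaaaattaaag
MALAT1, chr11:65272355-65272384, plus strand: ctatttactttaaataaaccaaacattcca
NEAT1, chr11:65198513-65198542, plus strand: cattccaTTCCCtccagcctcagcaacccc
SNHG17, chr20:37049251-37049280, minus strand: ttcacttttTACCCacccattcaataaacc
HIF1A-AS2, chr14:62200646-62200675, minus strand: tcctttttcaAACCCcctaaataaaactcc
RP11-115J23.1, chr11:28816184-28816213, plus strand: cttaTTCCCacaatacctcataaactccct
SLC39A9, chr14:69926840-69926869, plus strand: ctttctataccatttcaaaacacattacac
MAZ, chr16:29821517-29821546, plus strand: gtgagctctcagccacTTCCCtcccaaccc
hsa-mir-6723, chr1:566758-566787, plus strand: tctgactctTACCCccctctctcctactcc

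The libraries held 177530 to 201726 clusters and 3252800 to 6216226 cluster reads, and unique sequences made up 19.0 to 45.6% of the reads. The tables list only clusters of at least 5 reads with at least 4 T-to-C reads, so a gene with no cluster may still have had reads. The mesenchymal genes CD44, AXL, CAV1, MSN and VIM had clusters in every library, PGR had none and CDH1 had 1. ESR1 had 10, 2, 9 and 6 clusters, ERBB2 none in the cytoplasm and 4 and 5 in the nuclei, and EPCAM 3, 1, 3 and none, so markers of other breast cancer types were also listed, with at most 77 reads a library. KRT19 had 2 clusters of 7 and 5 reads, too few to check the genotype. In parental cytoplasm 215 bins of 100 kb held clusters in no other library, and the share of clusters in the noncoding classes was 7.10% there without these bins. More bound RNA and more binding per RNA cannot be told apart in these data, because no RNA level was set beside the clusters.

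Noncoding classes made up nearly the same share of clusters in all 4 libraries. There were 14606 such clusters in parental cytoplasm (7.24%, 7.13 to 7.35%), 13143 in KRT19 KO cytoplasm (7.40%, 7.28 to 7.53%), 14576 in parental nucleus (7.27%, 7.16 to 7.39%) and 15091 in KRT19 KO nucleus (7.58%, 7.46 to 7.70%). The KRT19 KO to parental ratio of this share was 1.02 (1.00 to 1.05) in the cytoplasm and 1.04 (1.02 to 1.07) in the nucleus. The cytoplasm to nucleus ratio was 0.995 (0.974 to 1.02) for parental and 0.977 (0.955 to 0.999) for KRT19 KO cells. By reads, the fractions stood further apart, with 6.65% and 6.23% of the reads in the parental and KRT19 KO cytoplasm and 8.01% and 8.09% in the nuclei, ratios of 0.831 (0.827 to 0.834) and 0.770 (0.766 to 0.774).

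Long noncoding classes held 48174 of the clusters (83.9%) and 70.9% of the reads. The largest of these classes were introns of lincRNAs, which are long intergenic noncoding RNAs, with 17504 clusters, processed transcripts with 14565 and antisense transcripts with 12600. Isoforms without a full reading frame, the nonsense-mediated decay and retained intron classes, held 5686 clusters, the boundary classes 2055, pseudogenes 916 and small RNAs 582. Small RNA clusters were 1.01% of the clusters but 14.5% of the reads. Their median was between 15 and 22 reads in each library and their mean between 173 and 532, so a few sites carried most of the reads.

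**Figure D1:**
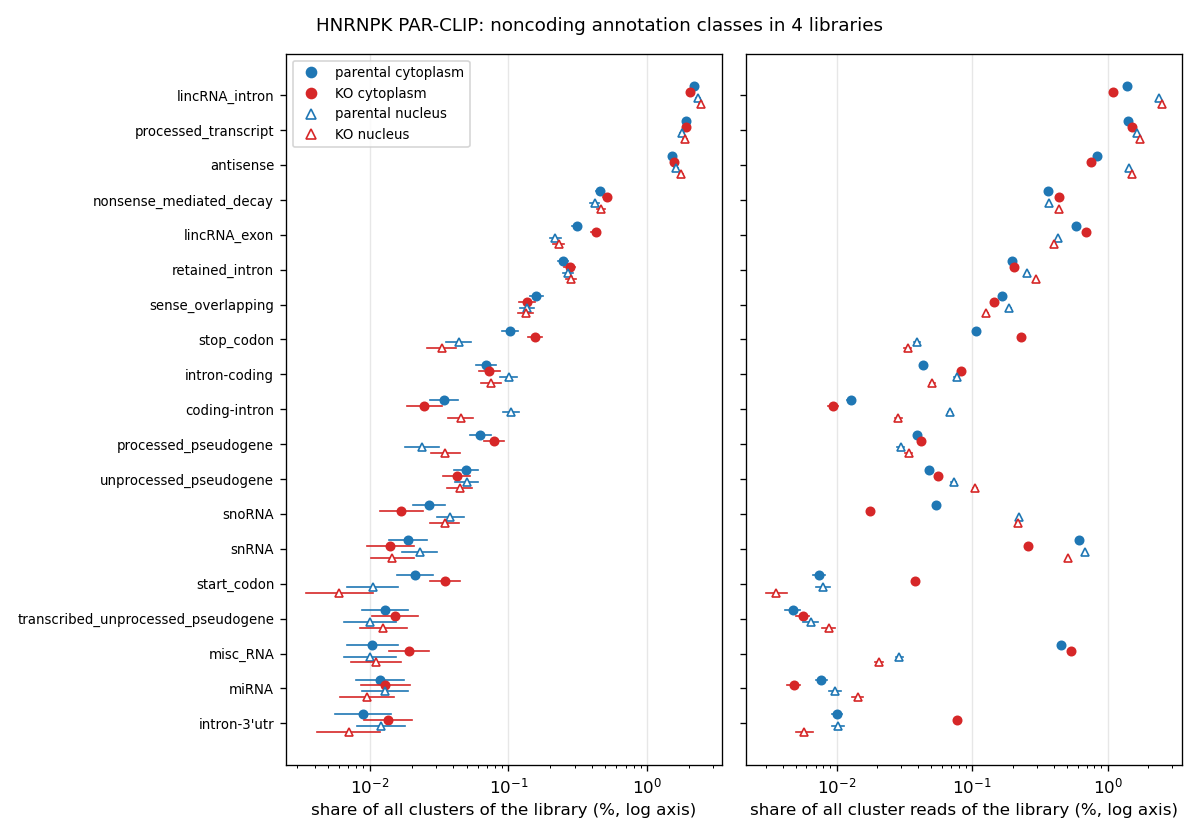
Share of all clusters (left) and of all cluster reads (right) of each library that fell in each class, in percent on log axes, with filled circles for cytoplasm, open triangles for nucleus, blue for parental, red for KRT19 KO and lines for 95% intervals. The 3 large long noncoding classes lie at 1.52 to 2.43% of clusters in every library, while stop_codon, start_codon, snoRNA and misc_RNA spread by library.

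Set against the GENCODE annotation, release 44 on GRCh37, many class names covered other parts of genes. Of the 57375 clusters on its chromosomes, 51.9% lay in introns of long noncoding genes, 26.0% in introns of coding genes and 9.43% in exons of long noncoding RNAs. Clusters of the processed_transcript class lay in introns of coding genes in 64.6% of cases, and those of the nonsense_mediated_decay class in 73.0%. Of the lincRNA_exon clusters, 73.2% lay in exons of long noncoding genes and 22.5% in a UTR of a coding transcript. Antisense clusters lay in introns of long noncoding genes in 79.7% of cases, and 42.1% of them had a coding gene on the opposite strand. Most of the clusters called noncoding were thus within introns, of noncoding or coding genes.

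Classes within exons and classes within introns differed in which fraction held more of them. For exons of lincRNAs the cytoplasm to nucleus ratio of the share of clusters was 1.43 (1.26 to 1.61) for parental and 1.84 (1.64 to 2.06) for KRT19 KO cells. Kept to the clusters in exons of long noncoding genes in GENCODE, it was 1.35 (1.18 to 1.56) and 1.66 (1.45 to 1.90), and for those in UTRs of coding transcripts 1.90 and 2.85. For introns of lincRNAs it was 0.932 (0.895 to 0.971) and 0.836 (0.802 to 0.873), beside 0.909 and 0.804 for protein-coding introns. By reads, introns of lincRNAs stood at 0.585 for parental and 0.434 for KRT19 KO cells, and antisense transcripts at 0.580 and 0.497. Sites over stop codons were more frequent in the cytoplasm, with ratios by clusters of 2.34 (1.82 to 3.0) and 4.72 (3.61 to 6.18), beside 2.77 and 3.96 for 3'UTRs. The nonsense_mediated_decay class had about the same share of reads in each fraction, with ratios of 0.974 and 0.989. A single gene, SLC39A9, held 2298 and 4852 of its reads in parental and KRT19 KO cytoplasm but 48 and 82 in the nuclei. The even balance thus depends in part on this gene, and the ratios without it were not computed.

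**Figure D2:**
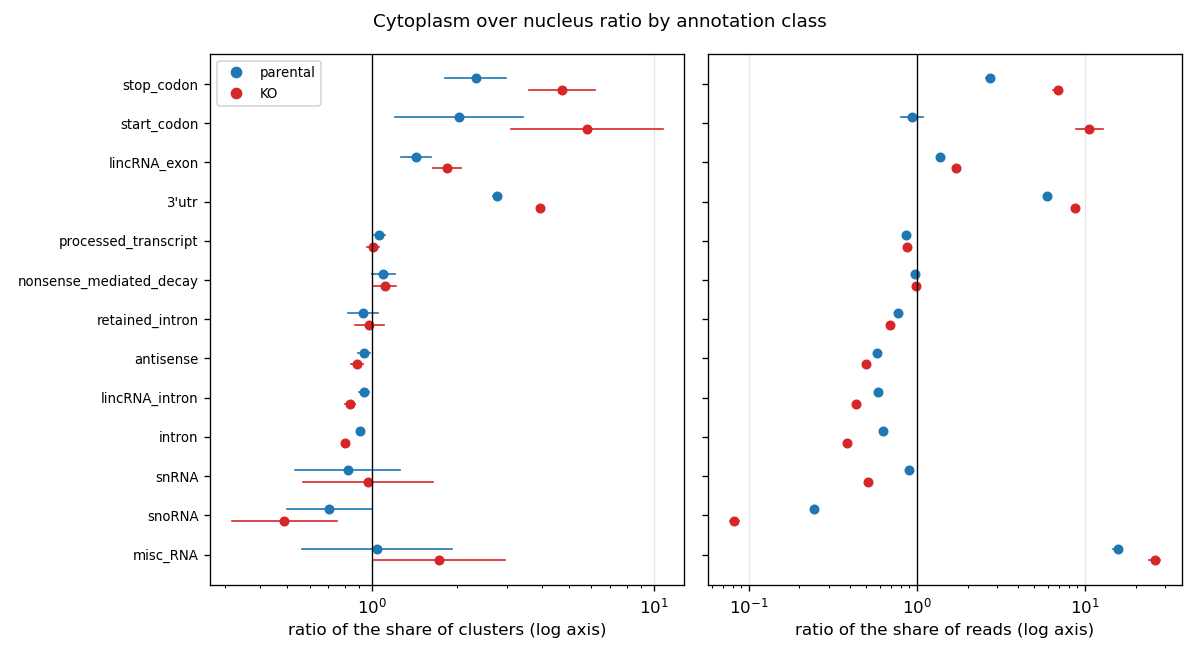
Cytoplasm to nucleus ratio of the share of clusters (left) and of reads (right) for each class, on log axes, with blue for parental and red for KRT19 KO cells, lines for 95% intervals and protein-coding introns and 3'UTRs for comparison. The exonic and codon classes lie right of 1, the intronic classes left of it, and snoRNA and misc_RNA lie at the opposite ends by reads (0.0819 and 26.0 in KRT19 KO cells).

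Read sums per gene name, scaled to the same total of cluster reads per library (RPM), spread to both sides between fractions. In the values for all gene names, here and below, the noncoding and the other clusters of a gene were summed apart. A gene with both kinds was thus counted once for each. In parental cells, 165 of 869 gene names (19.0%) with at least 100 reads in the pair of libraries were at least 2-fold higher in the cytoplasm, where 19.5% of all gene names were, and 329 (37.9%) were at least 2-fold lower, where 31.1% were. In KRT19 KO cells 254 of 917 (27.7%) were higher, beside 27.0% of all, and 414 (45.1%) were lower, beside 37.7%. The median cytoplasm to nucleus ratio over these gene names was 0.637 for parental and 0.572 for KRT19 KO cells, against 0.718 and 0.723 over all gene names. The noncoding names thus lay further toward the nucleus than the whole, on the lower side only.

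Between the cell lines the spread was more even. In the cytoplasm, 24.8% of 912 gene names were at least 2-fold higher in KRT19 KO cells, beside 19.9% of all gene names, and 232 (25.4%) were lower, beside 20.4%. In the nucleus, 170 of 840 (20.2%) were higher, beside 11.3% of all, and 146 (17.4%) were lower, beside 15.7%. The medians were 0.988 in the cytoplasm and 0.985 in the nucleus, against 0.957 and 0.930 over all gene names. In these counts a library with no cluster for a gene was set to the lowest listed value of 5 reads.

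Few class shares differed much between the cell lines. The share of clusters in exons of lincRNAs was 1.37 times higher (1.23 to 1.52) in KRT19 KO than in parental cytoplasm and 1.06 times (0.932 to 1.21) in the nucleus. In the cytoplasm this was 1.29 (1.14 to 1.46) for the clusters in exons of long noncoding genes in GENCODE and 1.53 (1.24 to 1.89) for those in UTRs of coding transcripts, beside 1.50 for 3'UTRs. The nonsense_mediated_decay class stood at 1.12 (1.02 to 1.23) in the cytoplasm and 1.11 (1.01 to 1.22) in the nucleus. Processed transcripts stood at 1.00 (0.958 to 1.05) in the cytoplasm. Antisense clusters made up 1.52 and 1.56% of the clusters in parental and KRT19 KO cytoplasm and 1.62 and 1.77% in the nuclei, a cytoplasmic ratio of 1.03 (0.979 to 1.08) that was 0.908 (0.896 to 0.919) by reads. The interval by clusters therefore included 1, and the ratio by reads lay on the other side of it.

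The small RNA reads belonged mainly to U4 snRNA, the partner of U6 before spliceosome activation, and to RNY1, a Y RNA that binds the Ro60 protein. The 5 gene names with the most reads held 91.8% and 92.9% of small RNA reads in parental and KRT19 KO cytoplasm and 66.5% and 66.2% in the nuclei. In all, small RNA took 1.42% and 0.829% of cytoplasmic reads and 0.960% and 0.761% of nuclear reads in parental and KRT19 KO cells. The KRT19 KO to parental ratio was 0.584 by reads in the cytoplasm but 0.921 (0.724 to 1.17) by clusters, an interval that includes 1. The ratio by reads includes copies of 5.8S rRNA, with 20.0% of the small RNA reads in parental and 0.596% in KRT19 KO cytoplasm.

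RNY1, on chromosome 7 minus strand, was the small RNA with the most reads. It held 24985 reads in parental cytoplasm, 31897 in KRT19 KO cytoplasm, 737 in parental nucleus and 85 in KRT19 KO nucleus. The cytoplasmic share was 21.6 times the nuclear one in parental cells (20.1 to 23.2) and 196 times in KRT19 KO cells (159 to 243). Between cell lines the ratio was 1.14 (1.12 to 1.16) in the cytoplasm and 0.125 (0.100 to 0.157) in the nucleus. The main site lay at the 5′ end, over the first 33 of the 113 bases of the gene, and holds no copy of the motif. The reads of this site had T-to-C changes in only 6.58%, 8.62%, 8.28% and 4.71% of cases in the 4 libraries, and this sequence is 1 edit from another annotated Y RNA copy. Y RNA as a family had 25077, 32200, 779 and 85 reads, of which RNY1 took 99.2%.

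U4 snRNA was read from 2 neighbouring genes whose sites differed by 3 edits where clusters were long and by 1 or 2 where they were short, so reads of the pair cannot be fully separated. RNU4-2 held 21906 reads in parental cytoplasm, 9145 in KRT19 KO cytoplasm, 9751 in parental nucleus and 9093 in KRT19 KO nucleus. RNU4-1 held 9718, 5726, 5553 and 4640 reads in the same order. For both genes parental cytoplasm had the most reads, and the 2 nuclear libraries were close in RPM. The KRT19 KO to parental ratio was 0.373 (0.364 to 0.382) for RNU4-2 and 0.526 (0.509 to 0.544) for RNU4-1 in the cytoplasm, and 1.01 (0.986 to 1.04) and 0.909 (0.874 to 0.945) in the nucleus. Every cluster began between bases 59 and 67 of the 141 bases of the gene and covered the same motif copy, TTCCC in the sequences above. RNU4-2 reads had T-to-C changes in 63.2, 60.3, 52.4 and 48.0% of cases.

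The other spliceosomal snRNAs had fewer reads, and single sites decided their sums. U2 snRNA, which pairs with the branch point, held 1592, 566, 4725 and 509 reads in parental cytoplasm, KRT19 KO cytoplasm, parental nucleus and KRT19 KO nucleus. Most of them lay in RNU2-61P, a U2 copy on chromosome 6 with 1509, 527, 4421 and 496 reads over bases 76 to 121 of 191. Its sequence is 1 edit from RNU2-59P and within 2 edits of 9 gene names, so the copy cannot be assigned with certainty. The nuclear KRT19 KO to parental ratio of RNU2-61P was 0.122 (0.111 to 0.134). U5 snRNA, which aligns the exons, held 111, 62, 3310 and 20 reads, and the parental nuclear sum rested on RNU5A-8P with 1540 and RNU5F-1 with 1328 reads, for which no other library listed a cluster. In KRT19 KO nucleus RNU4-78P, 1 edit from RNU4-1, held 1584 reads and was listed in no other library. These 3 sites were chosen after their values were seen. U1 held 152, 215, 325 and 309 reads and U6 134, 50, 270 and 132, small sums beside U4.

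snoRNA sites had more reads in the nucleus. The box C/D family (SNORD), which guides 2′-O-methylation, held 1761 reads in parental cytoplasm, 543 in KRT19 KO cytoplasm, 5068 in parental nucleus and 3825 in KRT19 KO nucleus. The H/ACA family (SNORA), which guides pseudouridylation, held 995, 418, 1537 and 1989 reads. Over the whole snoRNA class the cytoplasm to nucleus ratio of the share of reads was 0.245 (0.235 to 0.256) for parental and 0.0819 (0.0769 to 0.0872) for KRT19 KO cells. Parental and KRT19 KO nuclei differed little, with a ratio of 0.978 (0.947 to 1.01), while the cytoplasmic ratio was 0.327 (0.305 to 0.350) by reads and 0.631 (0.404 to 0.986) by clusters, which numbered 54 and 30. Few cytoplasmic clusters stand behind these ratios.

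Box C/D sites covered the letters of both boxes more often than other sites did. Of 92 SNORD clusters under 56 gene names, 44 (47.8%) began within the first 5 bases of the gene, as did 37 of 83 SNORA clusters (44.6%). TGATGA was found in 34 SNORD clusters (37.0%), against 0.235% of all clusters in the noncoding classes and 0.0769% of intron clusters. CTGA, the letters searched for box D near the 3′ end, was found in 44.6% of SNORD clusters and in 3.25% of all noncoding clusters. Among SNORA clusters 3.61% held TGATGA. The motif of the study was present in 5.43% of SNORD and 25.3% of SNORA clusters, against 33.3% of snRNA clusters. These boxes define the family, and a match of letters is not a binding site.

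Single snoRNAs were often listed in some libraries only. SNORD12 had 377 reads in parental cytoplasm and 782 in parental nucleus, and no cluster was listed in the KRT19 KO libraries. SNORD11B had 598 reads in parental nucleus and 485 in KRT19 KO nucleus and SNORD111 516 and 305, with no cytoplasmic cluster for either. SNORD85 was listed with 78 reads in KRT19 KO cytoplasm, 637 in parental nucleus and 170 in KRT19 KO nucleus. These snoRNAs were chosen after their values were seen. GAS5, a host gene whose introns hold snoRNAs, had 67 and 127 reads in parental and KRT19 KO cytoplasm and 580 and 878 in the nuclei, of which 385 and 590 in the nuclei were in the snoRNA class. Its cytoplasm to nucleus ratio was 0.0736 (0.0572 to 0.0948) for parental and 0.0757 (0.0628 to 0.0912) for KRT19 KO cells.

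Other small RNAs were sparse. RMRP, the RNA of RNase MRP, had 559 reads in KRT19 KO cytoplasm and 251 in KRT19 KO nucleus, and no cluster was listed in either parental library. RPPH1, the RNA of RNase P, had 7, 164, 36 and 83 reads in parental cytoplasm, KRT19 KO cytoplasm, parental nucleus and KRT19 KO nucleus. The 7SK family, which holds back the elongation factor P-TEFb, had 97, 92, 117 and 152 reads. RN7SK itself had 12 reads in KRT19 KO cytoplasm and 12 in parental nucleus. The 7SL family, the RNA of the signal recognition particle, had 54, 128, 99 and 87 reads. RNA5-8SP5, a 5.8S rRNA copy 2 edits from the ribosomal DNA sequence, had 2687 reads in parental and 269 in KRT19 KO cytoplasm. The 5.8S copies as a family had 15729 and 307 reads in the cytoplasm, no cluster in parental nucleus and 6 reads in KRT19 KO nucleus. In parental cytoplasm 5.8S copies thus held 15729 of 78759 small RNA reads, most of them in a copy on chromosome Y, whose genes are not described singly.

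The miRNA class held 92 clusters under 75 gene names, and 43 of them shared 15 bases with a mature miRNA. Its reads numbered 429, 301, 346 and 466 in the 4 libraries. The deepest cluster had 130 reads and lay in MIR3687, in KRT19 KO nucleus. It shared no 15 bases with a mature miRNA and was within 1 edit of the ribosomal DNA sequence. MIR17HG, the host transcript of a miRNA cluster, had 6 reads in parental cytoplasm, 5 in parental nucleus and 128 in KRT19 KO nucleus. Of these, 96 lay in 1 cluster that matched miR-92a-3p.

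The snoRNA and snRNA sites had a lower median share of T-to-C reads than long noncoding and intron sites. Because the tables require 4 such reads, this share depends on depth, so it was compared in clusters of at least 100 reads. The median was 28.9% in snoRNA clusters of parental cytoplasm (n = 8), 27.9% in KRT19 KO cytoplasm (n = 4), 26.0% in parental nucleus (n = 19) and 30.1% in KRT19 KO nucleus (n = 19). In snRNA clusters it was 40.7, 42.0, 40.6 and 34.3% (n = 4, 5, 8 and 4). Over all reads of these snRNA clusters the share was 56.5, 52.3, 47.5 and 41.8%. Long noncoding clusters stood at 53.4, 56.3, 54.3 and 53.9% by reads, so the order was the other way in parental cytoplasm. Long noncoding clusters had medians of 54.5, 56.9, 56.2 and 56.4%, close to 56.6, 56.7, 55.6 and 55.5% in introns. The ranges overlapped, since snoRNA clusters of KRT19 KO nucleus spanned 12.8 to 63.8% and long noncoding ones 22.0 to 88.5%. A low share was not general to small RNA, since RNA5-8SP5 stood at 95.2% in parental and 98.9% in KRT19 KO cytoplasm. Pseudogene clusters had medians of 54.3, 51.2, 14.4 and 43.5% in the 4 libraries (n = 7, 11, 3 and 3).

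**Figure D3:**
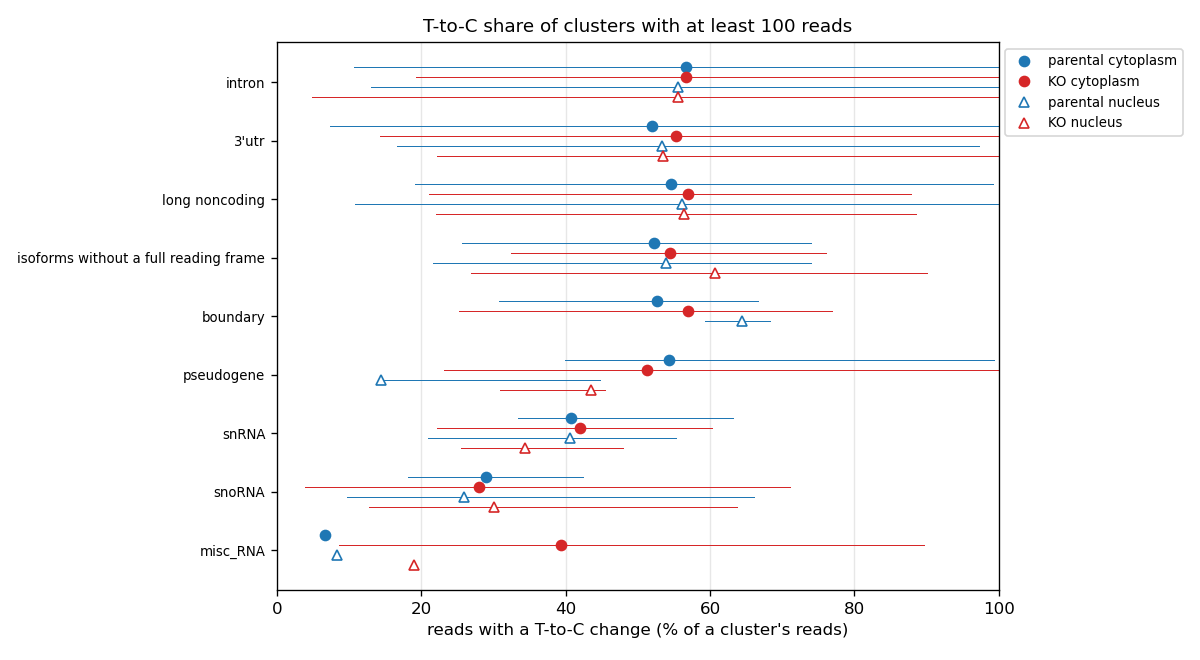
Share of reads with a T-to-C change, in percent, in clusters of at least 100 reads, where marks are medians, lines run from the lowest to the highest cluster, filled circles are cytoplasm, open triangles nucleus, blue parental and red KRT19 KO. Medians of the long noncoding clusters lie between 54.5 and 56.9% beside those of introns, snoRNA medians between 26.0 and 30.1%, and the misc_RNA marks at 6.58 and 8.28% are RNY1.

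Among long noncoding RNAs, RP11-115J23.1, a lincRNA gene on chromosome 11 plus strand with sites from 28724197 to 29084190, had the most clusters and reads. It held 318, 293, 376 and 372 clusters and 9273, 7296, 10300 and 9118 reads in parental cytoplasm, KRT19 KO cytoplasm, parental nucleus and KRT19 KO nucleus. In RPM, both nuclei were higher than both cytoplasms, with cytoplasm to nucleus ratios of 0.574 (0.558 to 0.590) for parental and 0.419 (0.406 to 0.432) for KRT19 KO cells. The KRT19 KO to parental ratio was 0.703 (0.681 to 0.725) in the cytoplasm and 0.963 (0.936 to 0.990) in the nucleus.

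PVT1, a host transcript next to MYC, held 3372, 2374, 5722 and 4783 reads in 178, 107, 236 and 189 clusters, with the nuclei higher in each cell line. LINC00669, on chromosome 18, held 2252, 1874, 2902 and 2479 reads. FTX, a noncoding gene of the X-inactivation centre, held 2185, 2697, 2362 and 2140 reads, with a KRT19 KO to parental ratio of 0.985 (0.929 to 1.04) in the nucleus. MGST1, a microsomal glutathione transferase gene listed here for its processed transcripts, held 1431, 1207, 1147 and 1506 reads. Of these genes PVT1 had the lowest cytoplasm to nucleus ratios, 0.376 for parental and 0.260 for KRT19 KO cells.

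HIF1A-AS2, a transcript antisense to the hypoxia factor HIF1A, held 4211 reads in parental cytoplasm, 5324 in KRT19 KO cytoplasm, 3656 in parental nucleus and 6686 in KRT19 KO nucleus. KRT19 KO cells were higher in each fraction, by 1.13 times (1.08 to 1.18) in the cytoplasm and 1.99 times (1.91 to 2.07) in the nucleus. RP11-166D19.1, a sense_overlapping gene on chromosome 11, held 3727, 4945, 786 and 302 reads. It lay on the cytoplasmic side, at 3.02 times (2.80 to 3.26) for parental and 8.57 times (7.63 to 9.62) for KRT19 KO cells.

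MALAT1 and NEAT1, neighbouring genes whose RNAs are kept in nuclear speckles and paraspeckles, differed in their distribution. MALAT1 held 6825 reads in parental cytoplasm, 5236 in KRT19 KO cytoplasm, 3140 in parental nucleus and 1783 in KRT19 KO nucleus. NEAT1 held 1257, 1267, 2791 and 3551 reads in the same order. NEAT1 was lower in the cytoplasm, with ratios of 0.287 (0.269 to 0.307) for parental and 0.187 (0.175 to 0.199) for KRT19 KO cells. MALAT1, also a nuclear RNA by its known location, stood at 1.39 (1.33 to 1.44) and 1.54 (1.46 to 1.62), a direction that rested on 1 site.

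Most of the cytoplasmic MALAT1 reads lay in a single site. Bases 7244 to 7312 of the 10434 bases of the gene held 4833 reads in parental and 3572 in KRT19 KO cytoplasm, and no nuclear library listed a cluster there. Without this site MALAT1 was lower in the cytoplasm, as NEAT1 was, at 0.404 (0.382 to 0.428) and 0.488 (0.457 to 0.522). Without the deepest cluster of each library it had 1992, 1664, 1996 and 1263 reads, and these ratios were 0.636 (0.598 to 0.677) and 0.689 (0.641 to 0.742). The site at bases 5308 to 5350 held 808, 1088 and 1144 reads in parental cytoplasm, KRT19 KO cytoplasm and parental nucleus, and had no cluster in KRT19 KO nucleus. For NEAT1, bases 8247 to 8309 of 22767 held 1192 and 1298 reads in the parental and KRT19 KO nuclei, and no cytoplasmic library listed a cluster. MALAT1 had 55 separate sites, of which 2 were listed in all 4 libraries and 32 in 1, and NEAT1 had 104, of which 2 and 71.

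**Figure D4:**
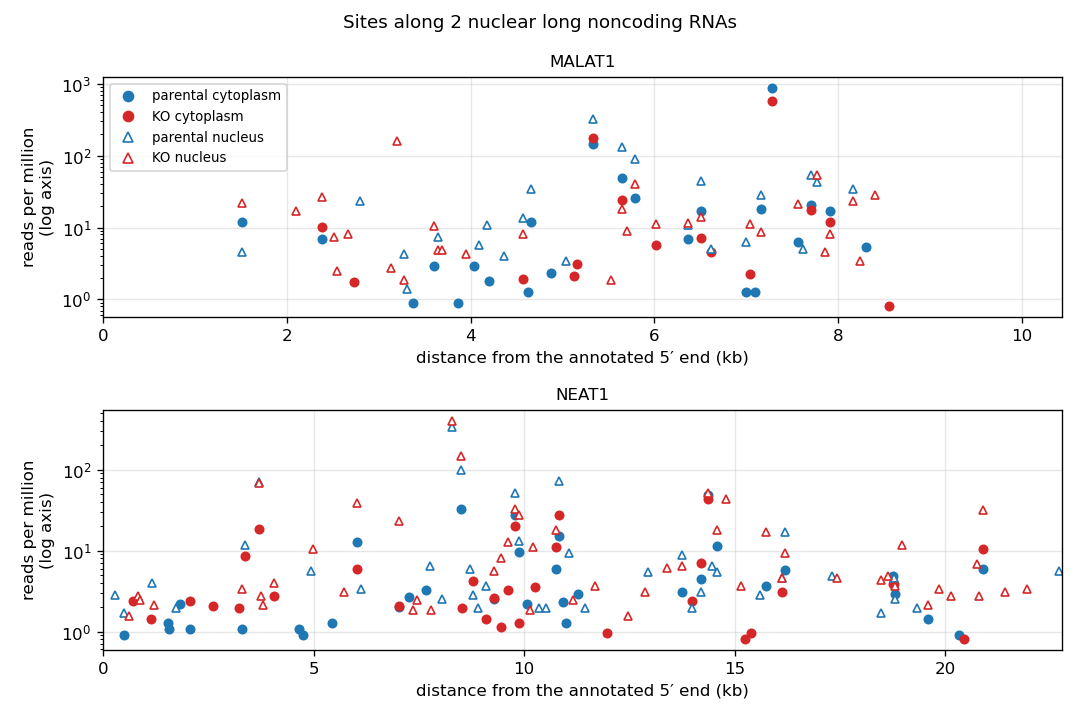
Reads scaled to the same library total (RPM, log axis) of each site along MALAT1 and NEAT1 against the distance from the annotated 5′ end in kb, with filled circles for cytoplasm, open triangles for nucleus, blue for parental and red for KRT19 KO. The highest MALAT1 marks are the cytoplasmic pair of the site with 4833 and 3572 reads, and the highest NEAT1 marks are the nuclear pair with 1192 and 1298 reads.

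The snoRNA host genes, spliced RNAs whose introns carry snoRNAs, did not move together. SNHG17 held 884, 2827, 1752 and 1450 reads in parental cytoplasm, KRT19 KO cytoplasm, parental nucleus and KRT19 KO nucleus, and was 2.86 times higher (2.65 to 3.08) in KRT19 KO than in parental cytoplasm and 0.900 (0.840 to 0.965) in the nucleus. An exonic site, with the TACCC copy shown above, held 701, 2695, 1414 and 1079 of these reads. SNHG16 held 842, 467, 178 and 33 reads, with a KRT19 KO to parental ratio of 0.495 (0.442 to 0.555) in the cytoplasm. ZFAS1 held 837, 409, 1172 and 703 reads, at 0.436 (0.388 to 0.491) in the cytoplasm. SNHG1 held 127, 385, 397 and 574 reads, or 89, 321, 338 and 110 without its snoRNA clusters. SNHG5 held 294, 554, 398 and 92, or 294, 554, 65 and 92 without them, which turns the order of the nuclei for both genes. In the cytoplasm SNHG17, SNHG1 and SNHG5 were thus higher in KRT19 KO cells and SNHG16 and ZFAS1 lower.

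TUG1, a long RNA found in both compartments, held 720, 1753, 311 and 205 reads in parental cytoplasm, KRT19 KO cytoplasm, parental nucleus and KRT19 KO nucleus. It was 2.17 times higher (1.99 to 2.37) in KRT19 KO cytoplasm, and 0.717 (0.601 to 0.855) in the nucleus. KCNQ1OT1, a nuclear antisense RNA of an imprinted region, held 125, 357, 161 and 542 reads and stood higher in KRT19 KO cells in each fraction, by 2.55 (2.08 to 3.13) and 3.66 times (3.07 to 4.37). LINC00657, also known as NORAD, held 119 and 280 reads in parental and KRT19 KO cytoplasm, had no cluster in parental nucleus and 7 reads in KRT19 KO nucleus. DANCR held 41, 34, 45 and 39 reads, with cytoplasm to nucleus ratios of 0.581 (0.380 to 0.886) and 0.456 (0.288 to 0.723) and intervals between the cell lines that included 1. No noncoding cluster was listed under the names H19, HOTAIR, LINC-PINT, MEG3, MIR100HG or TERC. Other names for the same RNAs were not searched, so these RNAs may have clusters listed under another name, such as a clone name.

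Of 5 deep single sites with long noncoding class names, all chosen after their values were seen, 4 were highest in KRT19 KO cytoplasm. Their classes were processed_transcript and lincRNA_exon, of whose clusters 6.09% and 22.5% lay in a UTR of a coding transcript in GENCODE. The place of these 5 sites is not given singly, so they may not be long noncoding RNA. ANKRD30BL held 1602 reads in parental cytoplasm, 5750 in KRT19 KO cytoplasm, none in parental nucleus and 28 in KRT19 KO nucleus, at a sequence 2 to 3 edits from ribosomal DNA. A site in DKK1, the gene of a Wnt antagonist, held 503 and 3096 reads in the cytoplasm and 59 in KRT19 KO nucleus. A site in the zinc finger gene ZNF121 held 633, 2301, 96 and 58 reads. Its KRT19 KO to parental ratio was 3.25 (2.97 to 3.54) in the cytoplasm and 0.657 (0.474 to 0.910) in the nucleus. RP11-427H3.3 went the other way, with 2270 and 1521 cytoplasmic reads, 229 in parental nucleus and none in KRT19 KO nucleus. CTC-444N24.11 held 1874 reads in KRT19 KO cytoplasm, 116 and 60 in the nuclei and had no listed cluster at this site in parental cytoplasm.

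Among isoforms without a full reading frame, SLC39A9, a zinc transporter gene, had the most reads outside RP11-152P17.2. SLC39A9 held 2574 reads in parental cytoplasm, 5481 in KRT19 KO cytoplasm, 340 in parental nucleus and 323 in KRT19 KO nucleus. These sums join 2 classes that differed. In its nonsense_mediated_decay clusters SLC39A9 held 2298, 4852, 48 and 82 reads, with a KRT19 KO to parental ratio of 1.89 (1.79 to 1.98) in the cytoplasm and 1.86 (1.30 to 2.65) in the nucleus and cytoplasm to nucleus ratios of 30.5 and 31.0. Its processed_transcript clusters held 276, 629, 292 and 241 reads, with KRT19 KO to parental ratios of 2.04 (1.77 to 2.34) and 0.898 (0.757 to 1.06). A single site held 2117 and 3522 of its cytoplasmic reads, with no cluster in the nuclei. RP11-152P17.2, a gene with antisense and retained_intron clusters, held 3368, 4244, 2904 and 4354 reads in 153, 193, 146 and 197 clusters. It was 1.63 times higher (1.56 to 1.71) in KRT19 KO nucleus.

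COA1, a factor of cytochrome c oxidase assembly, held 781, 1571, 397 and 370 reads, at 1.80 (1.65 to 1.96) in the cytoplasm between KRT19 KO and parental cells and 1.01 (0.880 to 1.17) in the nucleus. RP11-47I22.3 held 1075, 511, 823 and 534 reads, with less in KRT19 KO cells in each fraction. KCTD7 held 381, 389, 451 and 845 reads and AC027763.2 468, 269, 387 and 680, both higher in KRT19 KO than in parental nucleus, at 2.04 (1.82 to 2.28) and 1.91 (1.69 to 2.16). RP11-613M10.9 held 436, 1125, 236 and 362 reads with more in KRT19 KO cells in each fraction, by 2.30 (2.06 to 2.57) and 1.67 times (1.42 to 1.97).

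Some gene names were listed in 1 cell line alone. RP11-169F17.1, on chromosome 18 minus strand from 70818626 to 70930215, had 54 clusters with 1353 reads in KRT19 KO cytoplasm and 52 with 777 reads in KRT19 KO nucleus, and none in the parental libraries. The flanks of this gene held 8, 16, 10 and 17 clusters in parental cytoplasm, KRT19 KO cytoplasm, parental nucleus and KRT19 KO nucleus, so neighbouring sequence was listed in all 4. A rule added after the values were seen, at least 5 clusters in both libraries of 1 cell line and none in the other, named 4 further genes. RP11-541G9.1 (13 and 12 clusters) and AP000476.1 (12 and 8) were listed in KRT19 KO cytoplasm and nucleus, although 1 cluster of 38 reads in parental nucleus, under another name or class, lay within the span of RP11-541G9.1, and RP11-844P9.2 (9 and 9) and CTA-714B7.5 (5 and 8) in the parental fractions.

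Another 12 gene names had at least 10 clusters in parental cytoplasm and none elsewhere. LINC00842, on chromosome 10, had 46 clusters with 1305 reads, and its flanks held 11 clusters in parental cytoplasm and none in the other libraries. HCG17, on chromosome 6, had 24 clusters, with 150 in its flanks in parental cytoplasm and none elsewhere. MIR29B1 had 32 clusters, but its flanks held 217, 84, 95 and 108 clusters in the 4 libraries. The others included RP11-357C3.3, RP6-99M1.2, LINC00894, CTC-260E6.6, SEC22B, RP11-258C19.5, ZNF518A and RP1-93I3.1, with 11 to 33 clusters. The 215 bins called in parental cytoplasm alone held 3418 clusters, 532 of them noncoding, where 7.24% of all clusters of this library were noncoding. Names in these bins numbered 344. Of these, 18 were listed in the other libraries on contigs outside the chromosomes, where parental cytoplasm had no clusters. The same rule for bins gave 2 for KRT19 KO cytoplasm, 4 for parental nucleus and 5 for KRT19 KO nucleus. Whether the libraries were aligned to the same set of contigs was not tested.

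Boundary classes held 507 clusters with 10506 reads in parental cytoplasm, 567 with 28759 in KRT19 KO cytoplasm, 596 with 7899 in parental nucleus and 385 with 4536 in KRT19 KO nucleus. In the cytoplasm the share of reads was 2.44 times higher (2.39 to 2.50) in KRT19 KO cells and that of clusters 1.27 times (1.13 to 1.43). In the nucleus both were lower in KRT19 KO cells, at 0.625 (0.602 to 0.648) by reads and 0.650 (0.572 to 0.739) by clusters. Kept to sites that no library gave another class, the cytoplasmic ratio was 1.67 (1.62 to 1.71) by reads and 1.26 by clusters. In the nucleus it was 0.634 by reads and 0.641 by clusters. This restriction could check few sites. Of 1827 boundary sites, 1513 (82.8%) were listed in 1 library, where no other library could give another class. The stop codon class alone stood at 1.53 (1.27 to 1.83) by clusters in the cytoplasm and 0.755 (0.549 to 1.04) in the nucleus, while that of 3'UTRs stood at 1.50 and 1.05.

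MAZ, a zinc finger transcription factor, had 1 stop codon site with 600 reads in parental cytoplasm, 1736 in KRT19 KO cytoplasm, 43 in parental nucleus and 46 in KRT19 KO nucleus. It was 2.58 times higher (2.35 to 2.84) in KRT19 KO cytoplasm and 1.16 times (0.768 to 1.76) in the nucleus, an interval that includes 1. ILF2 had 169, 688, 41 and 29 reads at its stop codon, and LCOR, a nuclear receptor corepressor, 221, 656, 49 and 84 at a 3'UTR edge. ILF2 and LCOR, chosen after their values were seen, kept their class in all 4 libraries.

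For other boundary sites the class changed between libraries although the clusters overlapped. A site here joins overlapping clusters, whose ends can differ between libraries. The MLF2 site, 195 bases long, held 1683, 4000, 225 and 182 reads. It was given as 3'UTR in parental cytoplasm and KRT19 KO nucleus, and was split between 3'UTR and the intron to 3'UTR edge in the other libraries. The edge class held 3745 of its reads in KRT19 KO cytoplasm and 7 in parental nucleus. PTP4A1, a protein tyrosine phosphatase gene, held 1204, 1559 and 41 reads in parental cytoplasm, KRT19 KO cytoplasm and KRT19 KO nucleus at a site named start_codon in KRT19 KO cytoplasm and 5'UTR in the others. RQCD1, a CCR4-NOT subunit gene, held 506, 1320, 29 and 43 reads at a site named intron-coding in KRT19 KO cytoplasm and coding in the others. Of 314 boundary sites shared by at least 2 libraries, 164 (52.2%) had the same class wherever they were listed, against 98.2% of 9266 shared sites of all noncoding classes. Over all 9266 shared sites, the classes outside the noncoding set that another library gave were coding (59 sites), intron (51), 3'UTR (37), 5'UTR (8) and no annotation (4).

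Pseudogene clusters were few, with 269 and 265 in parental and KRT19 KO cytoplasm and 181 and 201 in the nuclei. The entry hsa-mir-6723, named for a miRNA but listed as an unprocessed pseudogene on chromosome 1, held 786, 984, 708 and 2050 reads and was 3.15 times higher (2.89 to 3.43) in KRT19 KO than in parental nucleus. Its sequence is 1 edit from the mitochondrial genome, as were 7 of 24 pseudogene clusters of at least 100 reads, so these reads cannot be fully told apart from mitochondrial ones. MTND2P28 held 153, 90, 406 and 86 reads and MTND4P12 5, 52, 409 and 266, both copies of mitochondrial NADH dehydrogenase genes. RP5-874C20.3 held 543, 932, 58 and 208 reads. TPRKBP1 had 640 reads in parental cytoplasm and no cluster elsewhere.

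The motif of the study was about as frequent in noncoding as in intronic clusters. It was present in 29.7% of the noncoding clusters in parental cytoplasm (29.0 to 30.5%), 29.8% in KRT19 KO cytoplasm, 33.0% in parental nucleus and 34.2% in KRT19 KO nucleus. Windows of the same length 200 bases away on either side held it in 10.9, 10.7, 11.6 and 9.92% of cases. Intron clusters held it in 30.6, 31.5, 32.9 and 33.3%, so the ratio of noncoding to intron clusters was 0.970 (0.944 to 0.996), 0.945 (0.919 to 0.972), 1.00 (0.978 to 1.03) and 1.03 (1.00 to 1.05). Antisense clusters held it in 32.4, 32.4, 36.3 and 37.0% and boundary clusters in 21.9, 28.9, 26.7 and 27.8%. Small RNA clusters stood lowest against introns, at 20.9, 25.0, 21.1 and 19.6%, with 15.2, 13.4, 12.6 and 14.0% in their flanking windows.

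Few sites were listed in more than 1 library. Merged over the libraries there were 44803 noncoding sites, of which 35537 (79.3%) were listed in 1 library, 6399 (14.3%) in 2, 2215 (4.94%) in 3 and 652 (1.46%) in all 4. Among intron and 3'UTR sites, 75.6% and 67.9% were listed in 1 library and 1.88% and 2.60% in all 4. Of 842 noncoding sites with a cluster of at least 100 reads, 204 (24.2%) were listed in all 4. This was 32.2% for such intron sites and 15.6% for such 3'UTR sites. KRT19 KO cytoplasmic clusters overlapped a parental cytoplasmic cluster by at least 1 base in 25.6% of cases (24.9 to 26.3%), and in 68.7% of cases at 100 reads or more. In the nucleus 17.7% of parental clusters overlapped a KRT19 KO one, and 69.3% of the deep ones. Of 419 small RNA sites 7 were listed in all 4 libraries. The deepest cluster had a median of 8 reads at sites listed in 1 library and of 59.5 reads at sites listed in all 4. Clusters built on 1 unique sequence made up 29.0, 16.4, 39.9 and 39.1% of the noncoding clusters of the 4 libraries. Among all clusters of these libraries they made up 26.4, 14.0, 37.8 and 38.6%.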

How the data were processed

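HNRNPK PAR-CLIP of MDA-MB-231 cells gave 4 libraries, 1 for each condition. The RNA-seq part of the study, 17 samples, was not analysed here. Per the methods, the authors collapsed identical reads while adapters and molecular identifiers were still attached, which takes out PCR copies, aligned them to hg19 and called clusters with PARalyzer in PARpipe. The submitters' processing notes list bcl2fastq 2.20.0, TopHat, Cufflinks 2.2.1, Cuffdiff and hg38, with no role given. The counts of reads, unique reads and T-to-C reads per cluster were used as the authors deposited them, without normalization, and every cluster sequence checked on the chromosomes was equal to GRCh37.

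Clusters were chosen by class name, and shares of clusters and reads per library, Wilson intervals and ratios of shares were computed. Gene names with at least 100 reads in a pair of libraries and at least 2-fold apart in RPM (reads scaled to the same library total) were counted. No p-value was computed. Named genes were the 5 with the most reads and the 5 with the most clusters of each class group, a fixed set of noncoding families, and genes with at least 10 clusters in 1 library alone, and others are marked as chosen after their values were seen. XIST and genes on chromosome Y were not among them. The members and lists were chosen with earlier results of these data known. The interval, overlap and site merging steps were tested on simulated data, and the motif search was not. Alternatives were a minimum of 10 reads, 2 conversion locations or 2 unique reads, weighting by reads, leaving out the gene with the most clusters, CCC as motif and a stricter overlap. Python 3.11.15, pandas 2.3.3, numpy 2.4.6, numba 0.67.0, edlib 1.3.9.post1, matplotlib 3.10.9 and bedtools 2.31.1 were used, with GENCODE annotation 44 on GRCh37.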

Additional observations from a re-analysis of the deposited data

Results flagged for a closer look

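A pair of class groups had KRT19 KO to parental ratios on opposite sides of 1 in the cytoplasm and the nucleus. For boundary clusters the ratio of the share of clusters was 1.27 in the cytoplasm and 0.650 in the nucleus, and that of the share of reads 2.44 and 0.625. At 52.2% of shared boundary sites the class was the same in every library. Without sites that any library gave another class, the ratios were 1.26 and 0.641 by clusters and 1.67 and 0.634 by reads. That restriction could not act on the 82.8% of boundary sites listed in 1 library, so it is a weak check. For long noncoding clusters the ratio of the share of reads was 0.955 in the cytoplasm and 1.04 in the nucleus. With 1 library per condition, the difference between the fractions was not tested.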

How the results depend on the processing

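Most settings kept the ratios on the same side of 1, and a ratio is said to have moved where it left the 95% interval of its main value. The KRT19 KO to parental ratio of the noncoding share of clusters, 1.02 in the cytoplasm, was 1.05 with at least 2 conversion locations, 0.936 weighted by reads and 0.924 weighted by unique reads, and the nuclear ratio, 1.04, was 1.10 with 2 conversion locations, 1.07 with 2 unique reads and 1.01 weighted by reads. The cytoplasm to nucleus ratio, 0.995 in parental and 0.977 in KRT19 KO cells, was 0.961 and 0.943 with at least 10 reads, 0.831 and 0.770 weighted by reads, and 0.794 and 0.716 weighted by unique reads. The cytoplasmic antisense ratio, 1.03, was 1.10 with 2 conversion locations, 0.908 weighted by reads and 0.906 weighted by unique reads. The motif ratio to introns moved from 0.970 to 0.924 in parental cytoplasm, from 0.945 to 0.899 in KRT19 KO cytoplasm and from 1.00 to 0.961 in parental nucleus with at least 10 reads, to 0.931 in parental cytoplasm with 2 conversion locations, and to 0.996 in KRT19 KO cytoplasm with CCC as motif. In KRT19 KO nucleus it reversed from 1.03 to 0.968 with 2 conversion locations and to 0.996 with 2 unique reads. The cause was not tested. Leaving out the gene with the most clusters moved none of these 9 ratios. Leaving out the bins of parental cytoplasm alone or the boundary classes, and weighting by unique reads, were chosen after seeing the data, as were the restrictions of lincRNA exons and boundary sites given above, and neither the bins nor the boundary classes moved a ratio by this measure. Without the bins, however, 3 intervals that had included 1 no longer did, at 1.04 (1.02 to 1.07) for the cytoplasmic KRT19 KO to parental ratio, 0.976 (0.954 to 0.998) for the parental cytoplasm to nucleus ratio and 1.05 (1.00 to 1.11) for the antisense ratio, whose lower bound lay just above 1. No paired analysis was possible because each condition had 1 library and no result comes from a test. The minimum of 5 reads and the 9 to 11 reads of the median cluster limit what the depth can show of single sites.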
